A study of Mus musculus with 2 samples.

Results

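The 45 genes described here encode the machinery that copies chromosomal DNA: the factors that mark and license origins, the replicative helicase and its partners, the sliding clamp and its loader, the polymerases, the single-strand binding protein RPA, the enzymes that join Okazaki fragments, and the supply of deoxynucleotides. They were chosen by name from a list of gene symbols, by a rule that uses no measured value. Earlier results of these data were known when the list was chosen, so it is not independent of them. All 45 were found among the 21827 protein-coding genes of the GENCODE M21 basic annotation of mm10, the mouse genome build of the deposited tables. The data are DNase-seq of spleen from male B6CASTF1/J mice, a first-generation hybrid of the C57BL/6J and CAST/EiJ strains, aged 4 days. There are 2 libraries in 1 group, with no treatment and no second genotype, age or tissue, so every comparison is between genes or between the 2 libraries. The labels number the males differently (06 and 05) but give both libraries the same donor identifier; they were taken as separate animals, and if they are not, the SD over n = 2 is technical. Whole tissue was used, with no sorting of cells stated.

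DNase I cuts DNA that is not covered by nucleosomes, so a peak of cuts marks accessible chromatin, and a footprint is a short stretch inside it that was cut less than its flanks. In each cell cycle the origin recognition complex, with Cdc6 and Cdt1, loads the MCM helicase onto DNA in G1, and in S phase Cdc45 and the GINS complex join it to form the active helicase ahead of the polymerases. Many of these genes are textbook targets of E2F factors, which act at the G1 to S transition, whereas many genes of mitosis are read through NF-Y sites and the cell cycle homology region (CHR). The spleen of the newborn mouse is a site of blood formation, with many dividing red cell precursors.

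A gene was called open where a peak of the longer of the 2 deposited peak lists lay within 1 kb of any of its start sites in both libraries. Its promoter signal is the highest such peak, in the units the authors deposited, whose scale is not stated, and the mean of the 2 libraries is given with its SD (n = 2) or with both values. The SD is of the deposited values and so includes any difference in scale between the libraries. Over open promoters the median ratio of replicate 2 to replicate 1 was 0.845. The longer lists held 80323 and 88723 peaks in replicates 1 and 2, with median signals of 0.796 and 0.650, and the footprint lists held 217159 and 252901 entries. Read totals were not used, so depth is unknown and no counting interval can be given. The erythroid markers Gata1, Klf1, Epb42 and Slc4a1 were open, with mean promoter signals from 2.68 at Gata1 to 5.55 at Slc4a1. The B cell markers Cd79a (1.79) and Pax5 (1.20) were open as well. Of 3 markers of spleen stroma 2 were open, of 2 macrophage markers none, and of 3 hepatocyte markers none. The part of each cell type in the results below was not tested. In whole tissue, a weak peak in many cells and a strong peak in few cells cannot be told apart.

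All 45 replication genes were open, against 60.1% of all protein-coding genes. All 45 also had a promoter peak of the stricter list in both libraries, against 54.7% of all genes, and their strongest peak had the same signal in both lists. These promoters are CpG-rich, with a median observed over expected CpG ratio of 0.773, and CpG-rich promoters are open in most tissues. Each was therefore set beside the genes whose CpG ratio lay within 0.05 of its own, 2609 genes on average. Of such CpG-matched genes, a mean of 88.8% were open and 83.4% had a peak of the stricter list. The median promoter signal of the replication genes was 13.4 in replicate 1 and 10.4 in replicate 2 (11.96 for the mean of both), and the median over all promoters open in both libraries was 5.83. The median signal of the matched genes, open or not, was 7.23 at the median over the 45 matched sets. Among these CpG-matched genes, open or not, the replication genes ranked at a median percentile of 74.1. In all, 36 of 45 lay above the median of their matched genes and 10 above the 90th percentile, and 9 lay below the median. With the CpG window on the start site nearest the peak, which differs for 6 genes, the counts were 37 and 8; Lig1 and Mcm7 (75.6) fell below the 90th percentile and Fen1 (54.1) passed the median. Among all other genes, matched or not, the median percentile was 86.5. The signals spanned from 3.76 ± 0.741 (SD, n = 2) at Pola1 to 28.7 ± 3.005 at Pold1, so the genes did not share a common level.

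**Figure D1:**
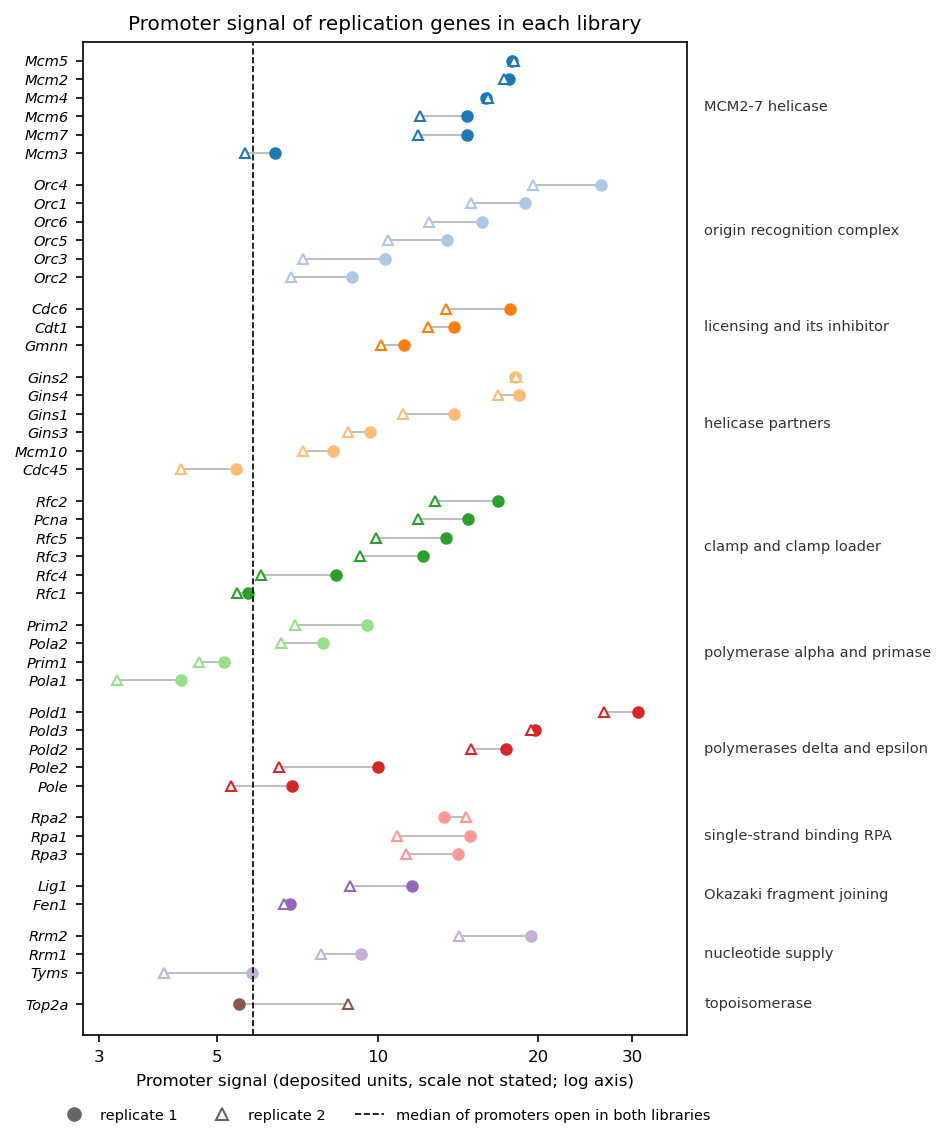
Promoter signal of the 45 replication genes (log axis, deposited units) in replicate 1 (filled circles) and replicate 2 (open triangles), grouped by role; the grey line joins the libraries and the dashed line is the median of 5.83 over promoters open in both. Most genes lie to the right of the dashed line in both libraries, and Top2a has the widest gap between libraries in favour of replicate 2.

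The origin recognition complex is the 6-subunit machine that marks origins. Its subunit genes covered a wide range, with a median signal of 13.0. Orc4 was the strongest, at 26.3 in replicate 1 and 19.5 in replicate 2 (22.9 ± 4.77), and exceeded 99.1% of its CpG-matched genes. Orc1, whose product is the subunit that turns over with the cell cycle in mammals, had 18.9 and 15.0. Orc6 had 15.7 and 12.5, and Orc5 had 13.5 and 10.4. Orc3 had 10.3 and 7.24. Orc2 was the weakest, at 8.97 and 6.88 (7.92 ± 1.48), and fell at the 47.5th percentile of its matched genes. The lower value of Orc4 lay above the higher value of Orc1, and both values of Orc2 and Orc3 lay under the lower value of Orc5, while Orc2 and Orc3 overlapped each other. Orc4, Orc1, Orc6 and Orc3 each share their promoter peak with a neighbouring gene (Mbd5, Prpf38a, Vps35 and Rars2), and the signal cannot be divided between the partners. The stretches before the start sites of Orc4 and Orc1 are shown because Orc4 is the strongest of the group and Orc1 carries an E2F word at a footprint. Capitals mark an E-box (CACGTG) and an SP/KLF word (GGGCGG) in Orc4, and an E2F word in Orc1 read on the opposite strand.
Orc4 (chr2:48949277-48949400, minus strand): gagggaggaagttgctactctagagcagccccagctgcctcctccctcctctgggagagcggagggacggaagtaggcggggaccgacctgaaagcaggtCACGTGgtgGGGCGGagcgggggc
Orc1 (chr4:108579405-108579453, plus strand): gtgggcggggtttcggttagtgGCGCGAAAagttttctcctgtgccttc
Both lines end at the base before the start site, and all their bases are given in mm10 on the strand of the gene.

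Licensing needs Cdc6 and Cdt1, which bring the MCM rings to the origin, and is blocked by geminin (Gmnn), which binds Cdt1. Cdc6 had 17.7 and 13.4 (15.6 ± 3.03) and Cdt1 had 13.9 and 12.5. Gmnn was the weakest of the group at 11.2 and 10.1 (10.7 ± 0.761), and its range did not reach that of Cdt1. The group lay at the 60.7th to 85.0th percentile of CpG-matched genes. Cdc6 had 13 distal regions within 50 kb, Cdt1 had 11 and Gmnn had 4. Cdt1 is shown because its E2F word (capitals) lies wholly inside a footprint found in both libraries, 36 bp after the start site in a UTR.
Cdt1 (chr8:122568036-122568065, plus strand): ggaactaccttTTTGGCGCcatggcgcaaa

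The MCM2-7 ring is the motor of the replicative helicase, and its subunits are needed in equal numbers. Of its 6 genes, 5 had promoters of similar strength: Mcm5 had signals of 17.9 and 18.0 (17.9 ± 0.0769), Mcm2 had 17.7 and 17.3, Mcm4 had 16 and 16.1, Mcm6 had 14.7 and 12, and Mcm7 had 14.7 and 11.9. Mcm3 was the exception at 6.42 and 5.64 (6.03 ± 0.551), below the lowest library value of the other 5 subunit genes. The 5 lay between the 76.2nd and 96.0th percentile of their CpG-matched genes and Mcm3 at the 47.9th. As deposited, Mcm5, Mcm2 and Mcm4 differed from each other by less than the gap between the libraries seen at Mcm6 and Mcm7. That gap includes the general offset between the libraries. With log2 ratios of replicate 2 to replicate 1 centred on all open promoters, Mcm6 and Mcm7 lay at -0.05 and -0.06. Mcm5, Mcm2 and Mcm4 lay at 0.25, 0.21 and 0.26, so their closely matching deposited values do not mean closer replication. Mcm4 stands head to head with Prkdc, which encodes the catalytic subunit of the DNA-dependent protein kinase, with 489 bp between the start sites, and Mcm7 with Ap4m1, with 184 bp between the nearest start sites, so part of each window belongs to a neighbour. Mcm7 had 2 strong peaks: the stronger lay in an intron, 517 bp after the nearest start site, and another of 11.6 and 10.9 lay just before that start site. It also had 15 footprints found in both libraries within 1 kb of either of its 2 start sites, the most of the 45 genes.

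The promoters of the MCM genes are shown because 5 of the 6 genes with at least 2 E2F words are among them. An E2F word is any of TTTGGCGC, TTTCCCGC, TTTGCCGC and TTTCGCGC on either strand, searched in the 300 bp centred on the strongest promoter region of a gene. All but Mcm7 held at least 2 of them. In Mcm2, Mcm5 and Mcm6, a word on one strand and a word on the other overlapped, so that the pair fills 12 letters.
Mcm2 (chr6:88898678-88898707, minus strand): tggtctagtTTTCGCGCGAAAaccggtggc
Mcm3 (chr1:20820266-20820294, minus strand): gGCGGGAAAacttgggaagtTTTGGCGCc
Mcm4 (chr16:15637449-15637500, minus strand): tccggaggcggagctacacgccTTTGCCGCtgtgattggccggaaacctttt
Mcm5 (chr8:75109334-75109389, plus strand): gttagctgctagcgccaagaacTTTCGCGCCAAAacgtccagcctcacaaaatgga
Mcm6 (chr1:128359782-128359837, minus strand): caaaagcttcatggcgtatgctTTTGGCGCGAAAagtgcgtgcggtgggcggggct
Mcm7 (chr5:138171849-138171878, minus strand): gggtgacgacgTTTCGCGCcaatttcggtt
Capitals mark the E2F words. By the annotation the lines of Mcm2, Mcm3 and Mcm7 lie in UTRs of these genes, and those of Mcm4, Mcm5 and Mcm6 are intergenic. The pair in Mcm5 lies wholly within a footprint found in both libraries, at -209 bp from the start site, and another word of Mcm5, not shown, overlaps a footprint at the start site. The pairs in Mcm2 (85 bp after the start site) and Mcm6 (at -148 bp) lie inside the peak but overlap no such footprint. In Mcm3, 1 of the 2 words overlaps a footprint. The shown word of Mcm4 overlaps none. In Mcm7 the words lie outside the 300 bp window, at the peak near the start site, and both overlap a footprint. The 12-letter pair was counted after it had been seen in these genes: it occurred in the windows of 3 of the 45 replication genes and 5 of 13028 open promoters in all (0.0384%). Within 1 kb of any start site, whether or not in the strongest region, 11 of 21827 genes (0.0504%) held such a pair, 4 of them replication genes, of which Gins1 was the fourth.

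**Figure D2:**
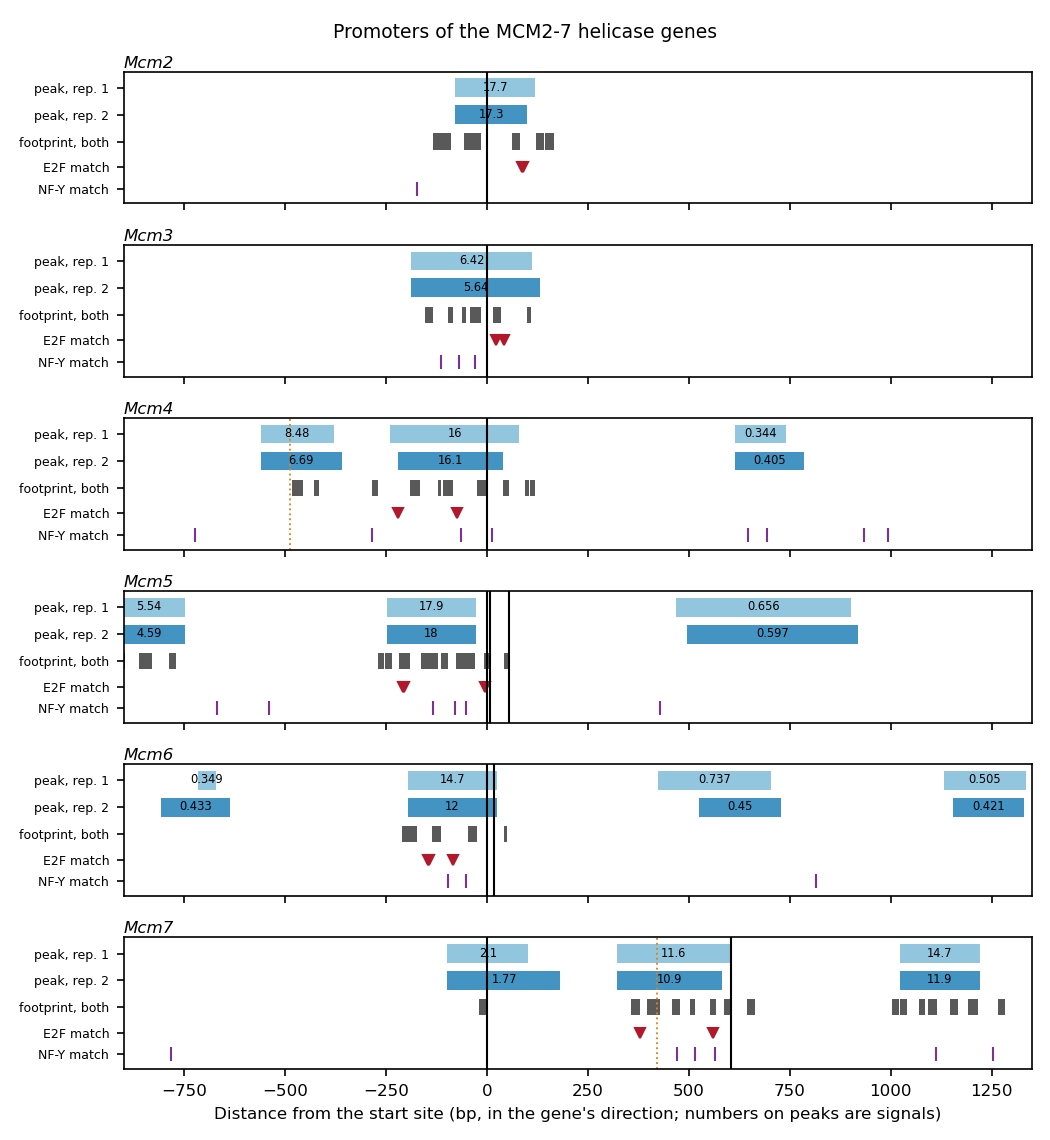
Promoters of the 6 MCM2-7 genes, drawn from the start site nearest the strongest region (for Mcm7 from its most upstream start site) in the direction of the gene (bp). Rows show the peaks of each library with their signal, the footprints found in both libraries, E2F words (triangles; overlapping words merge) and NF-Y words (bars); solid lines are start sites of the gene and dotted orange lines those of the neighbours Prkdc and Ap4m1. The peak at Mcm3 carries 6.42 and 5.64, against 17.7 and 17.3 at Mcm2, and the strongest peak of Mcm7 lies to the right of both its start sites.

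Cdc45 and the 4 GINS subunits complete the active helicase, and Mcm10 helps to start it. Their median signal was 10.9, and the group was split. Gins2 had 18.1 and 18.2 (18.2 ± 0.0329), and Gins4 had 18.4 and 16.8, both above the 90th percentile of their CpG-matched genes (90.6 and 90.5). Gins1 had 13.9 and 11.2, Gins3 had 9.68 and 8.78, and Mcm10 had 8.26 and 7.23. Cdc45 was the weakest at 5.43 and 4.28 (4.85 ± 0.816), at the 35.4th percentile. The peak of Cdc45 lies at -329 bp from its nearest start site, inside a UTR of Ufd1, its neighbour, and is also the strongest peak of Ufd1. For Gins1 the strongest region lies 247 bp after the start site in an intron, and a weaker peak of 6.92 and 4.60 covers the start site itself. That weaker peak holds the 12-letter E2F pair in a footprint, and Gins2 has an E2F word that overlaps a footprint 215 bp after its start site. Both are shown, with the E2F words in capitals.
Gins1 (chr2:150909576-150909605, plus strand): ttgagcctaTTTGGCGCCAAAgcgaggagc
Gins2 (chr8:120589074-120589103, minus strand): cccgcgcggtgGCGGGAAAgaagtgcctga

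Polymerase alpha with primase lays down the primers for both strands. Its 4 genes were the weakest group with more than 1 gene, with a median signal of 6.07. Prim2, the large primase subunit, had 9.54 and 7.01 (8.27 ± 1.79). Pola2, the accessory subunit of polymerase alpha, had 7.91 and 6.58. Prim1, the catalytic primase subunit, had 5.15 and 4.62. Pola1, the catalytic subunit of the polymerase, had 4.28 and 3.24 and was the lowest of all 45 genes. Pola1 lies on the X chromosome, of which males carry a single copy, and the share of this in its level was not tested. Its promoter also had 3 footprints found in both libraries, the fewest of the 45 genes together with Tyms. Within the group, 2 of 4 lay above the median of their CpG-matched genes.

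Polymerases delta and epsilon carry out the bulk of synthesis on the lagging and the leading strand. The delta genes included the strongest promoter of the 45. Pold1, the catalytic subunit of delta, had 30.8 and 26.6 and exceeded 99.4% of its CpG-matched genes, while its lower value lay above both values of every other replication gene. Pold3, an accessory subunit, had 19.7 and 19.4 (19.6 ± 0.228), and Pold2, another accessory subunit, had 17.4 and 14.9. The epsilon genes among the 45 were lower: Pole2, an accessory subunit, had 10 and 6.53, and Pole, the catalytic subunit, had 6.92 and 5.32 (6.12 ± 1.13). All 3 delta genes of the 45 thus lay above both epsilon genes of the 45 in both libraries. Pold4, Pole3 and Pole4 are not among the 45, so this is not a contrast of the whole enzymes. Pole shares its promoter peak with Pxmp2. The promoter of Pold1 is shown as the strongest of the 45, with its SP/KLF words (GGGCGG) in capitals, since it held no E2F, NF-Y or ETS word in its window. The 173 bases end just before the start site, and 6 footprints found in both libraries touch them. Pold3 is shown for an E2F word that lies wholly within a footprint.
Pold1 (chr7:44548848-44549020, minus strand): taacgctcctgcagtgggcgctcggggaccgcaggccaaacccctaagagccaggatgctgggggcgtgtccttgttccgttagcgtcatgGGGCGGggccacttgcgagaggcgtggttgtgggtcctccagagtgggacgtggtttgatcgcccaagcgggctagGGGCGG
Pold3 (chr7:100121467-100121496, minus strand): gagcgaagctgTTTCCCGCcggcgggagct

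PCNA is the ring that tethers polymerases to DNA, and replication factor C (RFC) opens and loads it. Pcna had 14.7 and 11.9, and among the loader genes Rfc2 was the strongest at 16.8 and 12.8 (14.8 ± 2.86). Rfc5 had 13.4 and 9.93, Rfc3 had 12.2 and 9.26, and Rfc4 had 8.37 and 6.05. Rfc1, the large subunit, was the weakest at 5.70 and 5.44 (5.57 ± 0.187), at the 35.8th percentile of its CpG-matched genes. The loader genes thus formed a gradient, and the higher value of Rfc1 lay just under the lower value of Rfc4.

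RPA coats the exposed single strands. Its 3 genes were close to one another: Rpa1 had 14.9 and 10.9, Rpa2 had 13.3 and 14.7, and Rpa3 had 14.1 and 11.3, with percentiles of 72.0 to 77.2 among CpG-matched genes. Their values overlapped between the libraries, so no order among them can be given. Rpa1 shares its promoter peak with Smyd4 and Rpa3 with Umad1. Okazaki fragments are trimmed by the flap endonuclease Fen1 and sealed by DNA ligase I (Lig1). Lig1 had 11.6 and 8.89 (10.2 ± 1.92), and Fen1 had 6.84 and 6.68 (6.76 ± 0.114). For Lig1 the CpG window lies on its most upstream start site, 1513 bp from the start site under the peak, and its ratio there is 0.297, against 0.721 at the start site under the peak. Its percentile was 98.4 with the window on the former, and 70.8 with the window on the latter. Its promoter peak is shared with Zswim9, and that of Fen1 with Tmem258. Fen1 had 12 footprints found in both libraries, the same number as Orc6, although its signal was among the lower ones. Footprints were counted within 1 kb of any start site, of which Fen1 has 4, and the counts were not adjusted for this.

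Ribonucleotide reductase (Rrm1 and Rrm2) makes deoxynucleotides, and thymidylate synthase (Tyms) makes the precursor of dTTP. Rrm2, the subunit whose level varies with the cell cycle, had 19.4 and 14.2 (16.8 ± 3.70). Rrm1, its partner in the enzyme, had 9.32 and 7.84. Tyms had 5.80 and 3.97 (4.88 ± 1.30), and 3 footprints found in both libraries. The values of the 3 genes did not overlap. Rrm2 also had 10 distal regions within 50 kb, of which the strongest lay 1.3 kb before its start site (chr12:24706821-24707060, signals 7.12 and 5.09). The E2F word of Rrm2 is shown because it lies in an intron, 505 bp after the start site, wholly inside a footprint, and not in the strongest region, which lies 30 bp before the start site.
Rrm2 (chr12:24708720-24708771, plus strand): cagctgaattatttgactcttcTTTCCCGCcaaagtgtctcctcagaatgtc

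Top2a encodes topoisomerase II alpha, which untangles the copied chromosomes and is needed most in mitosis. Its promoter had signals of 5.48 and 8.78 (7.13 ± 2.33), at the 45.9th percentile of CpG-matched genes. Its window held 5 NF-Y words (CCAAT), the most of the 45, 2 CHR words (TTTGAA) and 1 E2F word. Gins3 also held all of these kinds of word, with 2 NF-Y words, 1 CHR word and 1 E2F word. The 191 bases before the start site of Top2a are shown with the NF-Y and CHR words in capitals on whichever strand they lie.
Top2a (chr11:99024190-99024380, minus strand): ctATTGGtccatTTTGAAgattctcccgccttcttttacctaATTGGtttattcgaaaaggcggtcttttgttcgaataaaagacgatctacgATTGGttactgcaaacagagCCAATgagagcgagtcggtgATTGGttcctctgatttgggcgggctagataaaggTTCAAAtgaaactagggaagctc
Of the 5 NF-Y words 4 overlap a footprint found in both libraries, as does 1 of the 2 CHR words. The E2F word lies 71 bp after the start site, beyond the stretch shown.

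**Figure D3:**
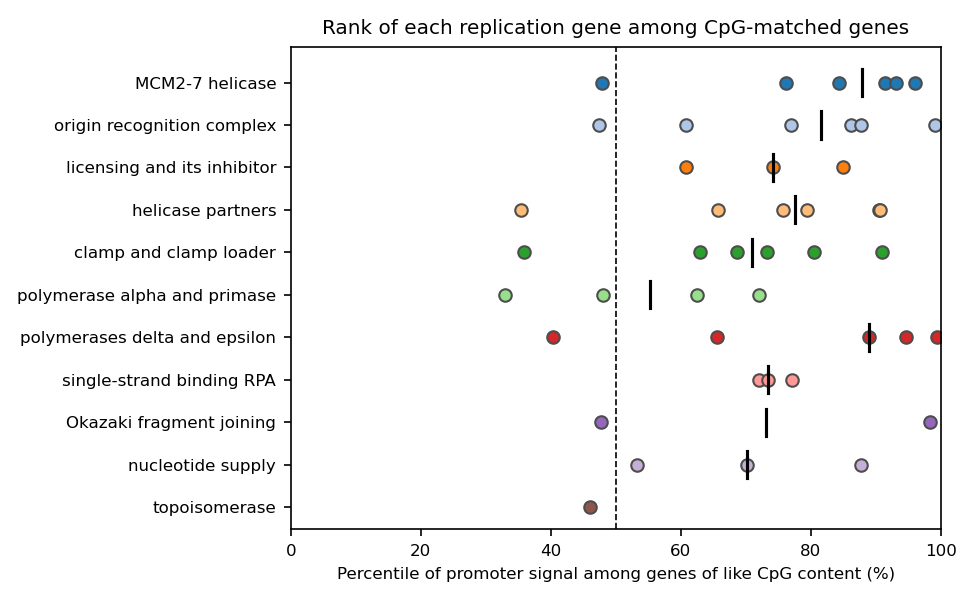
Percentile of each replication gene's promoter signal among genes whose CpG ratio lies within 0.05 of its own (points, coloured by role; bars are group medians; the dashed line is the 50th percentile). The 9 genes to the left of the line are spread over 8 of the 11 groups, and polymerase alpha with primase has the lowest median, 55.2, of the groups with more than 1 gene.

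Counted over all 45 genes, 17 (37.8%) held an E2F word in the 300 bp on the strongest promoter region, against 4.59% of the 13028 genes with a promoter region of both libraries and a mean of 5.02% of those CpG-matched genes that have such a region, which is also the base of the matched shares of other words. At least 2 E2F words were found in 6 genes (13.3%), Mcm2, Mcm3, Mcm4, Mcm5, Mcm6 and Rfc3, against 0.2% of those 13028 genes. By role, E2F words were in 5 of 6 MCM2-7 genes, 3 of 5 genes of polymerases delta and epsilon, 2 of 3 licensing genes and 2 of 6 genes of the origin recognition complex, and in none of the RPA or nucleotide supply genes. The words lay at a median of 22 bp after the start site nearest the strongest region, between -221 and 89 bp. Within footprints found in both libraries (5 bp added on each side), anywhere within 1 kb of a start site, E2F words were found in 12 genes (26.7%), against 3.17% of the 13028 genes. The 12 were Pold3, Gins2, Mcm5, Orc1, Rrm2, Mcm7, Cdt1, Gins1, Rfc3, Gmnn, Orc3 and Mcm3. Counting either place gave 22 genes, and 7 had both. Of the 25 E2F words in the windows of the 45 genes, 9 (36.0%) overlapped a footprint found in both libraries, and over the 13028 genes 334 of 635 did (52.6%). So the words were present in more of these promoters, while the share of words that lay at a footprint was not higher.

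NF-Y words were in the windows of 26 of the 45 genes (57.8%), against 37.1% of the 13028 genes and 38.1% of CpG-matched genes. Their median position in the 45 genes was 43 bp before the start site nearest the strongest region. The ETS word (CCGGAA) was in 25 (55.6%), against 30.3% and 33.1%, and was found in 5 of 6 genes each of the origin recognition complex and of the helicase partners. For SP/KLF the share was 73.3%, against 71.9% and 75.9%, and for NRF1 8.89%, against 12.01% and 13.2%, so these shares lay within a few percentage points of one another. The other words were in 7 genes or fewer. The GATA word (AGATAA) was in 2 (4.44%, against 3.72%) and the KLF1 word (CCACACCC) in 2 (4.44%, against 3.86%). The PU.1 word (GAGGAAGT) was in 1 (2.22%, against 2.89%). The RUNX word (TGTGGTT) was in none, against 2.92%. E-boxes were in 7 genes (15.6%, against 10.5%), the YY1 word (AAGATGGC) in 3 (6.67%, against 5.63%) and the CRE word (TGACGTCA) in 2 (4.44%, against 3.79%). E2F and NF-Y words were found together in 10 genes (22.2%, against 2.03%), and 4 genes held no E2F, NF-Y or ETS word (8.89%, against 41.7%). A match names letters in the window and does not show which protein was bound, and these shares are descriptions with no test.

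Other genes that act in replication were similar in openness, promoter signal and share of E2F words. This list of 43 includes the initiation factors Ticrr and Topbp1, the kinase pair Cdc7 and Dbf4, the chromatin assembly factors Chaf1a and Chaf1b, and the maintenance methyltransferase Dnmt1. All 43 were open, with a median promoter signal of 11.8 and a median percentile of 74.5 among CpG-matched genes, and 34 of 43 lay above the matched median. E2F words were in 15 of them (34.9%), NF-Y words in 21 (48.8%) and CHR words in 4 (9.3%). A list of 28 mitosis genes, such as Plk1, Aurkb and Ccnb1, was also open throughout, with a median signal of 10.6 and a median percentile of 67.6. Its words were different: E2F was in 1 of 28 (3.57%), NF-Y in 23 (82.1%) and CHR in 21 (75%), where the 45 replication genes had a CHR word in 5 (11.1%), the 13028 genes in 7.84% and CpG-matched genes in 7.37%. The medians of signal were thus close, and the shares of E2F and CHR words were not; that difference was not tested.

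**Figure D4:**
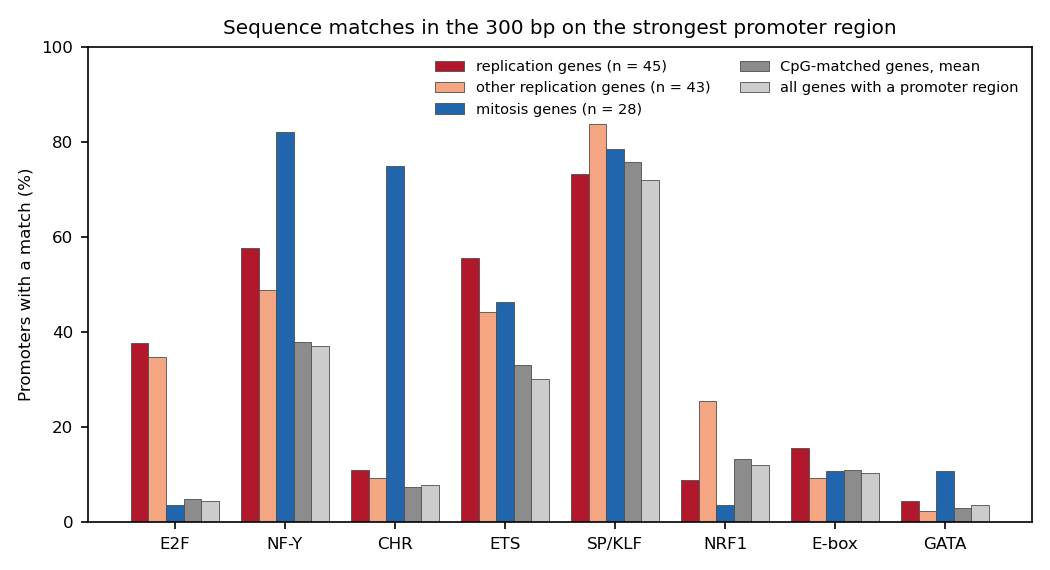
Share of promoters (percent) with at least 1 match to each word in the 300 bp on the strongest promoter region, for the replication genes, other replication genes, mitosis genes, CpG-matched genes (mean over the 45) and all genes with a promoter region of both libraries. E2F bars stand at 37.8% and 34.9% in the replication lists and at 3.57% in the mitosis list, and the CHR bar is at 75% in the mitosis list.

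Footprints found in both libraries lay within 1 kb of a start site in all 45 genes, against 56.3% of all protein-coding genes and a mean of 85.0% of CpG-matched genes. A replication gene had a median of 6 such footprints (9 in each library alone), and the median of open promoters was 5. The counts ran from 3 at Tyms and Pola1 to 15 at Mcm7, with 12 at Orc6 and Fen1. The bases with an FDR of at most 0.001 for accessibility within 1 kb had a median of 819 and 802 bp in the 2 libraries, against 714 and 738 bp over open promoters, and ranked at a median percentile of 51.9 among CpG-matched genes. In 42 of 45 genes the middle of the strongest region lay within 150 bp of a start site (93.3%), against 75.9% of the 13028 genes. The share was 81.4% in the list of other replication genes and 96.4% in the mitosis list, so it was not particular to the 45. The exceptions among the 45 were Mcm7, Gins1 and Cdc45, described above. In all, 12 of 45 share the strongest peak with another protein-coding gene, and 10 of these pairs stand head to head. The share over all open promoters was not computed, so these counts cannot be called high or low.

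Away from promoters, the replication genes had a median of 3 distal regions within 50 kb, as did open genes (3) and CpG-matched genes, and 7 had none (15.6%, against 11.98% of open genes), namely Orc4, Mcm4, Gins1, Lig1, Orc2, Mcm3 and Pola1. These regions were shared by both libraries and lay over 1 kb from every start site of a protein-coding gene. Start sites of non-coding genes were not considered. The 168 regions had a median signal of 1.05, against 0.833 over 39125 such regions in the genome, and for 61 of them the replication gene was the nearest protein-coding gene. After Cdc6 with 13, Pola2 had the most distal regions, 12. The strongest lay 25.6 kb before Mcm5 (chr8:75083921-75084100, intergenic, signals 10.95 and 8.003) and held 4 footprints found in both libraries, but its nearest gene is Hmox1, which encodes the heme-degrading enzyme heme oxygenase 1. Near Pola2, a region 1.25 kb before the start site (chr19:5965361-5965540) had signals of 4.87 and 4.72. Strong regions in the outer reach of Cdt1 and Cdc6 were nearer to Pabpn1l and Wipf2. Which gene a distal region acts on was not measured.

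The 2 libraries were then compared gene by gene. As deposited, 40 of 45 genes were higher in replicate 1 and 5 in replicate 2. The same split over all open promoters was not counted. Over all open promoters the median ratio of replicate 2 to replicate 1 was 0.845, a log2 ratio of -0.24, and each library may carry its own scaling factor, so ratios were centred on that median. The 45 genes then had a median log2 ratio of -0.07, and 18 of them lay above the centre. In all, 43 lay inside the range from -0.36 to 0.48 that holds 90% of open promoters. Pole2 (-0.37) lay just beyond the lower end. Top2a (0.92) lay far beyond the upper end, and 0.343% of open promoters had a ratio as far from 0 in either direction. Among promoters with a signal within 1.5-fold of that of Top2a the share was 0.236%. At Top2a, footprints went the other way, with 9 in replicate 1 and 5 in replicate 2. The bases with an FDR of at most 0.001 within 1 kb of its start site did so too, with 941 bp in replicate 1 and 594 bp in replicate 2. With 1 library on each side, a difference between animals and a difference between library preparations cannot be told apart.

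**Figure D5:**
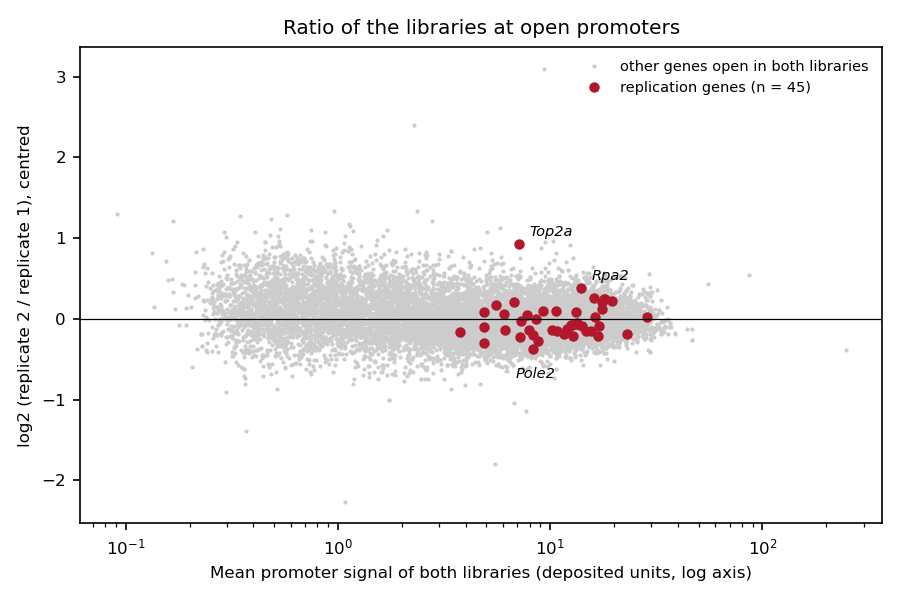
Log2 ratio of promoter signal, replicate 2 over replicate 1, centred on the median of promoters open in both libraries, against the mean signal (log axis, deposited units). Each grey point is a gene open in both libraries and each red point a replication gene; Top2a sits at 0.92, while 43 of the 45 lie between -0.36 and 0.48.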

How the data were processed

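DNase-seq of 2 libraries (replicates 1 and 2) was used. The authors deposited 2 peak lists per library with a peak signal (of unknown scale) and footprints and position lists with an FDR (q-value), on mm10 per the labels. The footprint FDR is 0.01 in every line, and the listed positions have an FDR under 0.05. Which aligner and callers were used, the read depth and the treatment of CAST/EiJ alleles: not given in the sources used here. Each library may be scaled by its own factor. The stricter lists hold 51123 and 56521 peaks, of which 50535 and 55775 overlap a peak of the longer list.

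The promoter window was 1 kb on either side of any of the start sites of a gene. Peaks of both libraries that overlap by at least 1 bp were merged into shared regions, and the one with the highest mean signal is the strongest region of a gene. The window for CpG content was 1 kb on the most upstream start site. A percentile is the share of genes with a lower signal, with tied genes counted in part. Genes with no promoter peak are included and rank lowest. 13 motifs were searched as exact words on both strands, and overlapping words of different motifs were each counted. The first bases of 75 of 75 transcripts matched the genome, and all printed sequences were read from the RefSeq copy of this build. Counting was tested on simulated data. No test was run, since 1 group offers no contrast. The 45 genes and the other lists were chosen with earlier results of these data known. Every gene of the list is named with its signals. A few other genes of the marker and comparison lists are not reported here by name. Alternatives were windows, peak lists, start sites, matching, words and single libraries. Python 3.11.15, numpy 2.4.6, pandas 2.3.3, pysam 0.24.0, samtools 1.23.1 and matplotlib 3.10.9 were used.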

Additional observations from a re-analysis of the deposited data

How the results depend on the processing

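Medians were judged by the SD of the values of the 2 libraries alone, and counts by their fold change. The counts of open promoters stayed between 44 and 45 of 45 under every alternative run. The count was 44 with the most upstream start site alone and with a reciprocal overlap of 50%. The median percentile among CpG-matched genes, 74.1 as reported, was 75.1 with CpG within 0.02 and 75.4 when the number of start sites was matched too. It was 74.1 to 74.98 with 1 library left out. The values 75.1, 75.4 and 74.98 lay further from the reported one than the SD, 0.6435. The median signal was 10.4 to 13.4 with 1 library left out. On other scales it was 16.5 when divided by the library median, and 96.6 as a percentile among all peaks. The median number of footprints was 9 with either library alone, because a footprint of both libraries is then no longer required, and 7 with a window of 2500 bp. Distal regions had a median of 3 to 4 with 1 library left out, 2 on the stricter list, 1 within 20 kb and 6 within 100 kb, as the criterion or the distance itself sets the number. The median log2 ratio of the libraries was -0.0585 on the stricter list and -0.0568 with the most upstream start site, against -0.0666 as reported.

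E2F words were in 14 to 21 of the 45 genes with other word sets, windows or 1 library left out. The share over all genes with a promoter region was not computed at these settings. These counts therefore do not show whether the contrast with that share holds there. With 7-letter words, an alternative chosen after seeing the data, they were in 28 genes (62.2%), against 20.4% of the 13028 genes with a promoter region. In footprints they were in 8 genes with 0 bp added and 13 with 10 bp added, and in 13 or 14 with 1 library alone, again without the share over all genes. Among the 33 genes whose promoter is not shared with another gene, also chosen after seeing the data, the median signal was 11.7 and the median percentile 74.1. E2F words were in 12 of the 33, and the share over all unshared promoters was not computed. With 500 bp and 2500 bp windows and with the stricter list, the signal of each of the 45 genes stayed within the SD of its 2 libraries. No paired analysis was possible because there is 1 group. Unknown depth limits what the absence of a weak peak or footprint in 1 library can show.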
